A study of Mus musculus with 4 samples.

Results

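The replication histone genes lie in the clusters whose mouse symbols begin with Hist1h, Hist2h, Hist3h or Hist4h, and every such gene with at least 1 unique molecular identifier (UMI, the tag that marks 1 captured RNA molecule) in any of the 4 libraries was taken as a member. This gave 64 members out of 22748 genes with a UMI, and 60, 58, 63 and 61 of them were detected in Control 1, Control 2, EC-Foxc-DKO 1 and EC-Foxc-DKO 2. Single cells came from the distal jejunum of 4 adult mice, 18.5 h after surgical ischemia and reperfusion (I/R) of the small intestine. The 2 Control mice were Foxc1fl/fl;Foxc2fl/fl, and the 2 EC-Foxc-DKO mice were Cdh5-CreERT2;Foxc1fl/fl;Foxc2fl/fl, so the controls carried the same floxed alleles without the Cre. Cdh5 drives the tamoxifen-inducible Cre in endothelial cells, so both Foxc genes were targeted in blood and lymphatic vessels and not in the epithelial or immune cells that held most histone UMIs. All 4 mice had I/R, and each mouse was 1 library.

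Core histones H2A, H2B, H3 and H4 wrap DNA into nucleosomes, and linker histone H1 binds the DNA between them. Most cluster genes are transcribed in S phase, when new DNA must be packaged, and their mRNA ends in a conserved stem-loop in place of a poly(A) tail. The stem-loop binding protein Slbp holds this end for processing, export, translation and decay. Some cluster genes also make a longer mRNA with a poly(A) signal, and such forms are known from differentiated cells that no longer divide. The libraries were primed on poly(A), so tailed transcripts are captured directly and stem-loop transcripts only in part. A level given here is therefore a level of captured RNA.

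Of the 64 members, 51 lie on chromosome 13, 10 on chromosome 3, 2 on chromosome 11 and 1 on chromosome 6 (GRCm38). The chromosome 13 genes held 94.1% of the 47986 member UMIs in the kept cells. The counts were concentrated in few genes: Hist1h2bc had 22044 UMIs in 2573 cells and Hist1h1c 10523 UMIs in 2305 cells, together 67.9% of all member UMIs. Hist1h2bc, an H2B gene with 2 exons, lies at 13:23684199-23692908 on the plus strand. Hist1h1c, which encodes the linker histone H1.2, lies at 13:23738808-23740367 on the plus strand. Next came the linker gene Hist1h1e with 3915 UMIs, the H4 gene Hist1h4i with 1675, the linker gene Hist1h1b with 1286, the H4 gene Hist1h4d with 1261 and the H2A gene Hist3h2a with 1014. In all, 20 members had at least 200 UMIs, 35 had at least 10 but fewer than that, and 9 had fewer than 10. The other members with at least 200 were the H2A genes Hist1h2ap (590), Hist1h2ae (491), Hist1h2ac (292) and Hist2h2ac (276), the H2B gene Hist1h2be (302), the H3 genes Hist2h3c2 (330), Hist1h3e (264), Hist1h3a (227) and Hist2h3c1 (218), the H4 genes Hist1h4h (349) and Hist4h4 (255), and the linker genes Hist1h1d (314) and Hist1h1a (226). Among less abundant members, Hist2h2aa1 had 175 UMIs, Hist1h3c 154, Hist3h2ba 149, Hist2h4 130, Hist2h2be 118, Hist1h4c 101 and the testis linker histone Hist1h1t 2. By class, H2B held 48.2% of member UMIs, H1 33.9%, H4 8.22%, H2A 6.44% and H3 3.19%. Hist1h1e overlaps Hist1h2be on the same strand, and several core genes are near-identical copies, so the split of reads among those is uncertain.

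The ends of the annotated transcripts separate the members. The stem-loop and its flanks (5′ to 3′, sense strand, GENCODE on GRCm38) are shown for 3 genes with an annotated transcript that runs on well past the loop and for Hist1h2ap, whose transcript stops just after it, with the loop in capitals.
Hist1h1c: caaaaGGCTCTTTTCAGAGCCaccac
Hist1h4i: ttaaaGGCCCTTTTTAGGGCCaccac
Hist1h2ae: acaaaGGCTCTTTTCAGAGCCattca
Hist1h2ap: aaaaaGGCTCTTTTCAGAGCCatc
The conserved histone stem-loop motif, with its stem bases required to pair, was searched on the sense strand of the annotated transcripts, and 43 members had it. Linker and core genes shared the motif. The annotated transcript continued for 840 bases after the loop in Hist1h1c, 330 in Hist1h4i and 151 in Hist1h2ae, against 3 bases in Hist1h2ap. The last 30 bases of the same 3 long transcripts each hold a poly(A) signal, in capitals.
Hist1h1c: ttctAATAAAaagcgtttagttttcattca
Hist1h4i: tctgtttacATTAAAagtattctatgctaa
Hist1h2ae: ccAATAAAtgggtcaatttttttcagattc

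Members were grouped by these ends. An annotated polyadenylated member ended over 100 bases past the loop, or had no loop but AATAAA or ATTAAA in its last 50 bases. This gave 26 members with 45.5% of member UMIs. Of these 26, 15 had such a signal in the last 50 bases. The others, Hist1h1e among them, are in the group by annotated length alone. The most abundant member, Hist1h2bc, met neither condition, although its transcript runs 742 bases past the stop codon into a second exon. A second grouping was therefore added after the values were seen. It counted 26 members with over 150 bases after the stop codon as having a long 3′ end, and these held 91.4% of member UMIs. Another 24 members with a shorter 3′ end held 5.17%, and 14 members whose gene model ends at the stop codon, among them Hist1h1b, held 3.41%. Of the 26 long-end members, 25 were also annotated polyadenylated and 22 had the stem-loop. Reads beyond the end of a gene model are not counted, so levels of genes annotated only to the stop codon are not comparable with those of genes with a long annotated end.

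Promoters were compared because one linker gene followed the dividing cells and another the villus tip (below). The 300 bases around the start (RefSeq, GRCm38.p6, 250 before to 50 after, gene strand) are given for Hist1h1b (chr13:21780576-21780875, minus strand) and Hist1h1c (chr13:23738557-23738856, plus strand), with the CCAAT box, the TATA box as TATAAA and the H1 box core as AAACACA in capitals where either strand has them.
Hist1h1b: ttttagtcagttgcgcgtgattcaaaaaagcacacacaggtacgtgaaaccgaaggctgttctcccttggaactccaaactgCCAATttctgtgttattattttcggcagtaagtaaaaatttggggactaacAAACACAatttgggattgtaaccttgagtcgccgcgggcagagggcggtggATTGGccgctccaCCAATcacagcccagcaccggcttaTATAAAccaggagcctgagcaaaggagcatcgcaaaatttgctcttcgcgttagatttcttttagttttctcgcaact
Hist1h1c: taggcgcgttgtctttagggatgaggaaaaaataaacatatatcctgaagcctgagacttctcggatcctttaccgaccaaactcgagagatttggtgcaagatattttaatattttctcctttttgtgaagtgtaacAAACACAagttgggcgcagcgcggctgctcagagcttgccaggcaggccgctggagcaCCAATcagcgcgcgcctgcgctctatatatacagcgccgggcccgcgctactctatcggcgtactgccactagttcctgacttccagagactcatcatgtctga
Both promoters hold AAACACA, the core of the H1 box of linker genes, and CCAAT, and in the Hist1h1b window TATAAA was also found. Among the 57 members with a promoter in RefSeq's table, 49 held CCAAT (86.0%, against 37.4% of all 32851 promoters of this length). That included every H1, H2A, H2B and H3 promoter in the table but only 3 of 11 H4 promoters. TATAAA was in 32 members (56.1% against 13.6%). The octamer ATTTGCAT was in 12 members (21.1% against 1.74%), 6 of 16 H2A and 6 of 15 H2B promoters, and in no H1, H3 or H4 promoter. AAACACA was in 4 of the 5 H1 promoters (Hist1h1b, Hist1h1c, Hist1h1e and Hist1h1t, not Hist1h1a), against 7.18% of all promoters. The motif matches are descriptions of these windows and were counted on both strands. Windows of some neighbouring H2A and H2B genes overlap, as for Hist1h2ae and Hist1h2bg, so the same site can be counted for both genes.

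Cells with at most 10% mitochondrial UMIs were kept, which left 5615 of 22679 barcodes, with 348 to 2742 cells and 3918909 to 30487782 UMIs per mouse. The median of UMIs per kept cell ranged from 4254.5 (EC-Foxc-DKO 1) to 19871 (EC-Foxc-DKO 2), and Control 2 stood apart with a median mitochondrial share of 54.0% before this limit. Barcodes shared by 2 libraries numbered 51, and 2 of these were kept in both. Foxc1 had 1 and 5 UMIs in blood endothelial cells (BEC) of the Control mice and 1 and 0 in those of the EC-Foxc-DKO mice, Foxc2 had 0 in every mouse, and counts this low do not check the labels. The limit removed the members unevenly: 45.0% of all UMIs were in kept cells, but 86.8% of Hist1h1b, 66.1% of Hist1h2ap, 42.3% of Hist1h2bc and 28.3% of Hist1h1c UMIs. Cells were clustered without the histone genes and clusters were named from marker genes, so a type's histone level did not help to define it. Levels are UMIs per 1000000 UMIs (CPM) of a mouse's cells of a type, and means ± SD are over mice. Since each molecule is counted once near its 3′ end, CPM was not divided by gene length.

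Resting cells of the villus, not the dividing cells, had the highest captured histone levels in the epithelium. Summed over all members, Top enterocytes had 2080 CPM in Control 1 (200 cells) and 1870 in EC-Foxc-DKO 1 (90 cells), with 1913 and 938 in the 2 mice with only 3 cells and 1 cell. Injury-state epithelium, a cluster named from markers such as Anxa2 and Lgals3, had 1484 ± 1181 CPM of all members (n = 4), from 423 in EC-Foxc-DKO 2 to 3140 in Control 2, where it was 2 cells, and without Control 2 the mean was 932 CPM. Germinal center (GC) B cells followed with 1225 ± 1047 CPM of all members (n = 4), and 77.9% of them were dividing by their cell cycle genes. They were at 451 and 420 CPM in Control 1 (8 cells) and Control 2 (4 cells) and at 2644 and 1386 CPM in EC-Foxc-DKO 1 (70 cells) and EC-Foxc-DKO 2 (22 cells). Without EC-Foxc-DKO 1 the mean was 752 CPM. Crypt cells, the dividing epithelium, had 306 ± 134 CPM of all members, which is below Middle enterocytes (544 ± 115) and Bottom enterocytes (432 ± 164) by mean, with overlapping mice. Tuft cells were even between mice at 639 ± 29.3 CPM, and macrophages were lowest among the named types at 164 ± 76.6. Mice of neighbouring types in this order overlapped in many places, and no test was made between types. EC-Foxc-DKO 2 had the lowest sum of all members in 16 of the 18 types with cells in 4 mice and Control 2 in the other 2. EC-Foxc-DKO 2 had the highest median of UMIs over all kept cells, but its rank differed between types. It was lowest in Bottom enterocytes (23202, against 32710 to 39146.5) and highest in Goblet and Paneth cells (20748, against 4657 to 13123.5). The part of depth in its low values was not tested.

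Within the epithelium Hist1h2bc and Hist1h1c carried the villus signal. Hist1h2bc was at 80.5 ± 37.6 CPM in Crypt cells, 270 ± 101 in Bottom, 306 ± 45.9 in Middle and, in the 2 mice with at least 10 Top cells, 1015 and 868 in Top enterocytes. Crypt values were 120 in Control 1, 54.4 in Control 2, 104 in EC-Foxc-DKO 1 and 43.1 in EC-Foxc-DKO 2. Bottom enterocyte values of Hist1h2bc were 325, 355, 272 and 128 in the same order, so every mouse was higher in Bottom than in Crypt cells. Injury-state epithelium had 883 ± 592 CPM of Hist1h2bc. In T cells, which do not belong to this gradient, Hist1h2bc was at 11.1 ± 8.81 CPM (CD8 T cells).

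The linker gene Hist1h1c had the same order with a steeper last step. It was at 26.5 ± 11.7 CPM in Crypt cells, 62.8 ± 33.1 in Bottom and 110 ± 51.0 in Middle enterocytes, and in Top enterocytes at 789 (Control 1) and 666 (EC-Foxc-DKO 1). Injury-state epithelium had 342 ± 340 CPM. The other linker genes did not share the step: Hist1h1b had 0 UMIs among the 4155883 of Top enterocytes, which allows up to 0.722 CPM by counting error, 3 in Middle, 22 in Bottom enterocytes and 1 in Injury-state epithelium.

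**Figure D1:**
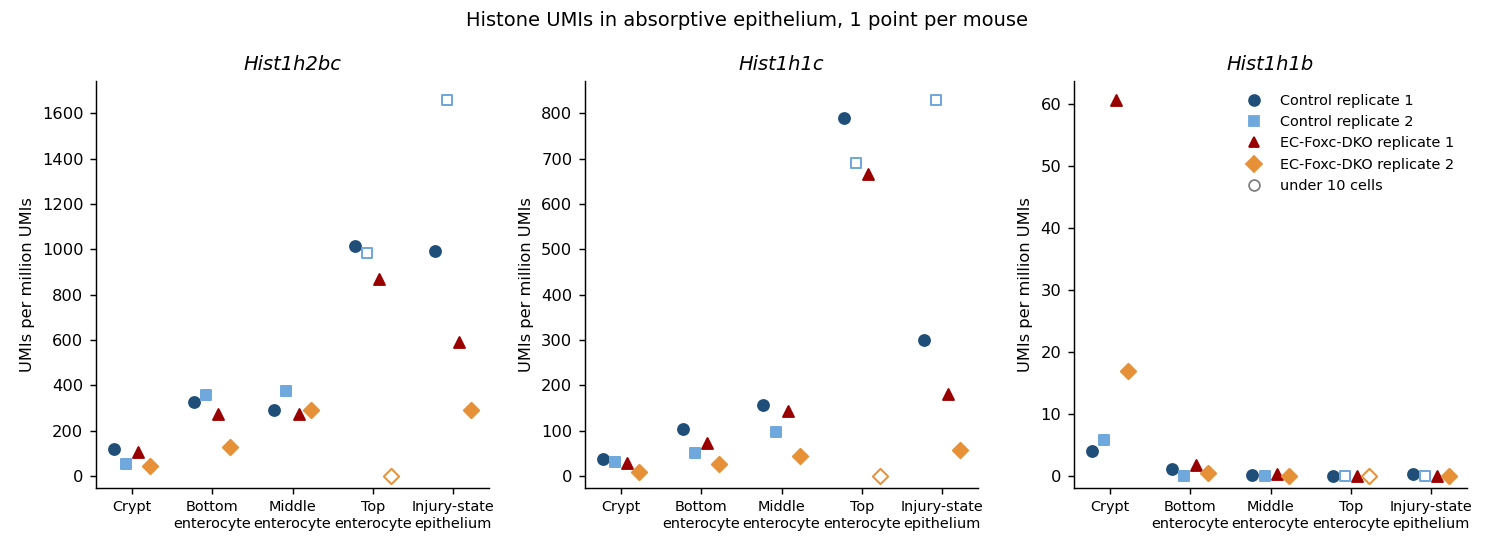
Level (CPM, vertical axis) of Hist1h2bc, Hist1h1c and Hist1h1b in 5 epithelial clusters, 1 point per mouse, with open points for under 10 cells. Hist1h2bc and Hist1h1c are highest in Top enterocytes and Injury-state epithelium, and Hist1h1b is near 0 outside the Crypt cluster.

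Most UMIs of Hist1h1b, which encodes the linker histone H1.5, and of the H2A gene Hist1h2ap lay in dividing cells. Of all Hist1h1b UMIs, 90.8% were in cells classed as dividing from cell cycle genes (below), against 74.1% for Hist1h2ap and 3.34% for Hist1h2bc. Hist1h1b was at 61.5, 0, 891 and 366 CPM in GC B cells of Control 1, Control 2, EC-Foxc-DKO 1 and EC-Foxc-DKO 2, where these were 8, 4, 70 and 22 cells. In Crypt cells it was at 4.04, 5.83, 60.7 and 17.0 CPM, from 20, 15, 38 and 144 cells. Hist1h2ap followed it, with 0, 0, 236 and 183 CPM in GC B cells and 2.31, 3.89, 52.2 and 7.13 in Crypt cells. The EC-Foxc-DKO mice were thus the higher ones for both genes in both types. Hist1h2ap was at 0 CPM in GC B cells of both Control mice, so its place in the dividing types rests on the EC-Foxc-DKO mice.

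Few cells held much of this signal. The 10 cells with the most Hist1h1b held 57.9% of its UMIs, against 6.87% for Hist1h2bc, and 93 of its 173 positive cells had 1 UMI. One CD8 T cell of EC-Foxc-DKO 1 held 115 of that group's Hist1h1b UMIs, and without it the level went from 119 to 8.84 CPM. In Crypt cells of the same mouse 1 cell held 78 Hist1h1b UMIs, and the level without it was 33.1 CPM. In Crypt cells of EC-Foxc-DKO 2 the level of Hist1h1b without its highest cell was 12.5 CPM, and in GC B cells it was 744 and 304 CPM in EC-Foxc-DKO 1 and 2. These remained above both Control mice.

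**Figure D2:**
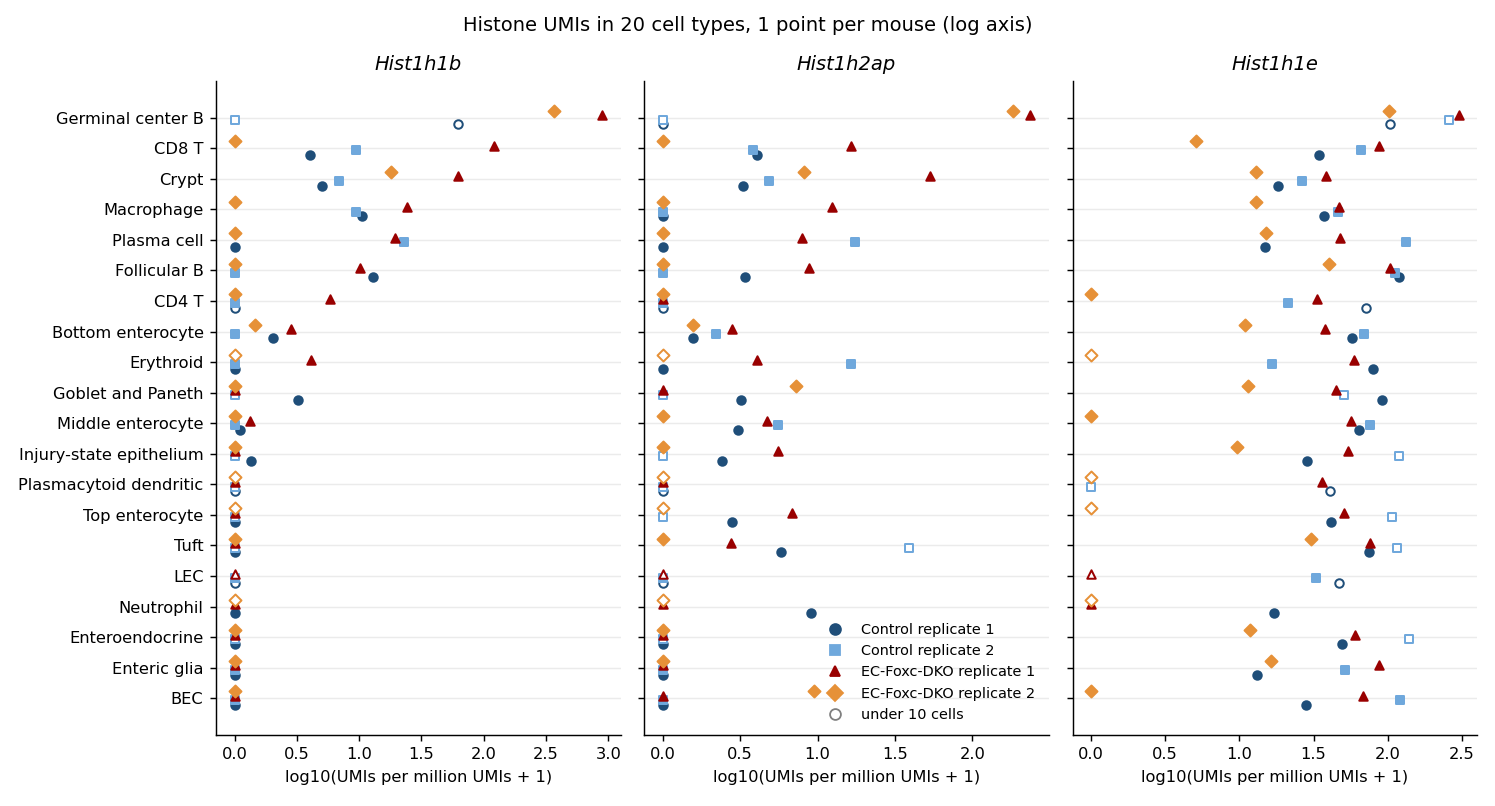
Level as log10(CPM + 1) of Hist1h1b, Hist1h2ap and Hist1h1e in 20 cell types, 1 point per mouse. Hist1h1b and Hist1h2ap are highest in GC B cells of the EC-Foxc-DKO mice, while Hist1h1e is spread over many types, among them B cells, BEC and enterocytes.

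The makeup of the histone UMIs differed between these types. With the mice summed, Hist1h1b gave 32.3% of the member UMIs of GC B cells, Hist1h1e 11.1%, Hist1h2ap 9.37%, Hist1h2ae 7.51% and Hist1h2bc 2.13%. In Crypt cells Hist1h2bc gave 25.5% and Hist1h1b 9.08%. In Top enterocytes Hist1h2bc gave 48.1% and Hist1h1c 37.2%, and in Injury-state epithelium Hist1h2bc gave 67.9%. Members with a long 3′ end held 98.6% of member UMIs in Top enterocytes and 98.7% in Injury-state epithelium, against 68.9% in Crypt cells and 40.1% in GC B cells. CD8 T cells, of which 2.92% were dividing, had 65.7% from members with a long 3′ end, below Crypt cells. Of their 741 member UMIs, however, 128 were of Hist1h1b, and 115 of these lay in 1 cell of EC-Foxc-DKO 1. The place of CD8 T cells below Crypt cells thus leans on that cell, and the share without it was not computed.

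**Figure D3:**
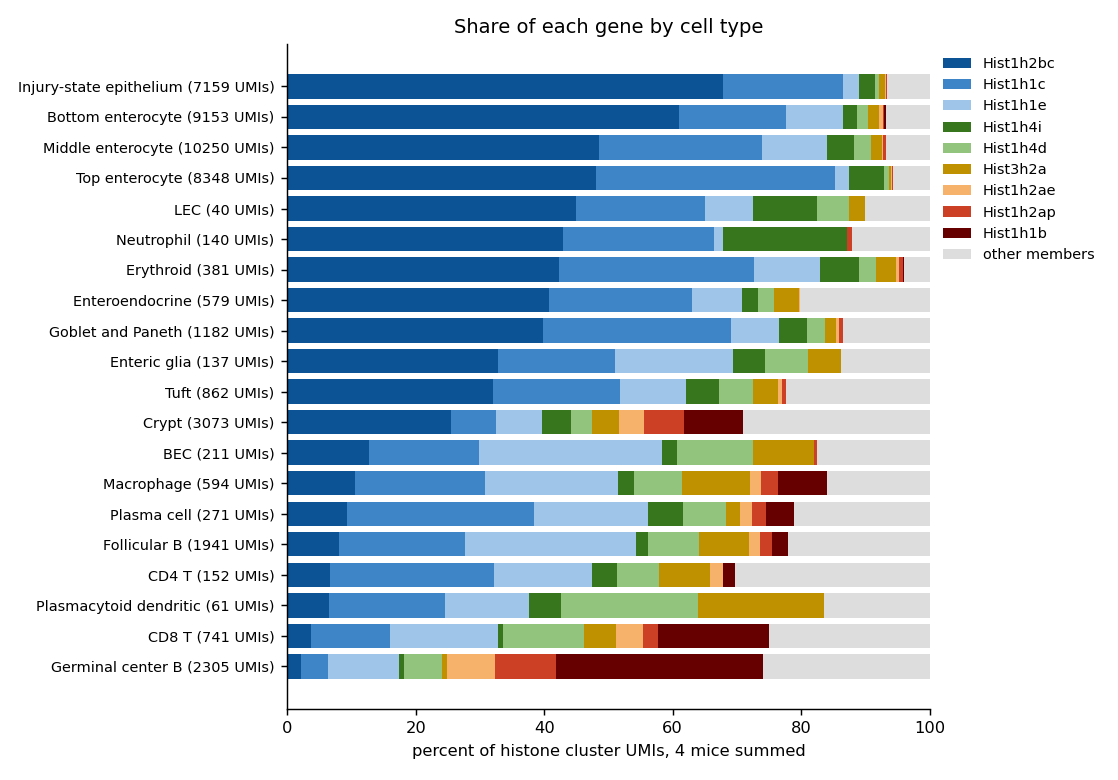
Share of member UMIs (percent) by gene in each cell type, with the mice summed. Hist1h2bc and Hist1h1c fill the enterocyte and Injury-state bars, and Hist1h1b is the largest named share in GC B cells at 32.3%.

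Other members were high in single cell types. Hist1h1e was at 190 ± 103 CPM in GC B cells and 92.2 ± 35.8 in Follicular B cells, so this linker gene was abundant in resting B cells as well. Hist1h2ae was at 95.2 ± 88.5 CPM in GC B cells, where the H4 gene Hist1h4d was at 64.2 ± 72.3, the H3 gene Hist1h3c at 39.3 ± 35.2, Hist1h3e at 28.7 ± 15.6 and Hist1h1d at 26.7 ± 33.0. Control 2, with 4 GC B cells, had no UMI of Hist1h2ae, Hist1h4d, Hist1h3c or Hist1h1d. Hist1h4i was highest in neutrophils at 138 ± 17.9 CPM (n = 3, 27 UMIs) and was at 92.2 and 141 CPM in Top enterocytes of Control 1 and EC-Foxc-DKO 1. These neutrophil values were close to each other. They came from only 30, 20 and 6 cells of Control 1, EC-Foxc-DKO 1 and EC-Foxc-DKO 2. With so few UMIs the closeness can arise by chance.

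The H3 gene Hist2h3c2 had 184 of its 330 UMIs in Injury-state epithelium (43.2 ± 50.6 CPM), and the H2A gene Hist1h2ac had 143 of its 292 in Top enterocytes (34.1 and 35.3 CPM in Control 1 and EC-Foxc-DKO 1). Hist2h3c1, the neighbouring H3 gene, was at 25.1 ± 7.45 CPM in enteroendocrine cells, with 31.2, 27.7, 27.3 and 14.3 CPM in the 4 mice. Hist2h2be was also highest there, at 15.5 ± 8.90 CPM on 12 UMIs. Hist1h1a had similar means in Tuft cells (21.0 ± 18.5 CPM, 35 UMIs) and GC B cells (20.7 ± 28.7 CPM, 50 UMIs). Hist3h2a was spread over types, with 47 ± 13.9 CPM in plasmacytoid dendritic cells and 29.6 ± 21.4 in Follicular B cells. Neither Hist2h3c1 nor Hist3h2a was highest in a dividing type.

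To compare dividing with resting cells of the same mouse, cells were classed by 65 cell cycle genes that include no histone: dividing with at least 3 of their UMIs and at least 0.2% of all UMIs, resting with under 0.1%. This gave 317 dividing and 5070 resting cells. Dividing cells made up 82.5% of the Crypt and 77.9% of the GC B cluster and 0 cells in the 3 enterocyte clusters and Injury-state epithelium. The other types had at most 9.45% (Goblet and Paneth cells). The class is a range on a score, and 76 cells lay between 0.15% and 0.25%.

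In the epithelium, 20, 10, 34 and 129 dividing cells were set against 893, 65, 581 and 620 resting cells. Summed over all members, levels were 319, 258, 528 and 187 CPM in dividing cells of Control 1, Control 2, EC-Foxc-DKO 1 and EC-Foxc-DKO 2. In resting cells they were 839, 638, 676 and 270 CPM, so this sum was lower in dividing cells of every mouse. Hist1h2bc and Hist1h1c set its direction. Dividing minus resting, the sum differed by -520, -380, -147 and -83.5 CPM. Hist1h2bc alone differed by -340, -317, -242 and -136 CPM and Hist1h1c by -173, -66.6, -137 and -26.0 CPM. In both EC-Foxc-DKO mice Hist1h2bc fell by more than the sum, so the other members together were higher in dividing cells. Members with a long 3′ end, Hist1h2bc and Hist1h1c among them, went the same way in sum. They had 268, 208, 313 and 129 CPM in dividing and 821, 616, 650 and 262 CPM in resting cells. The remaining members (short 3′ end or none annotated) went the other way in every mouse, with 51.2, 50.0, 216 and 58.1 CPM in dividing and 18.0, 21.7, 25.3 and 8.13 CPM in resting cells. The annotated polyadenylated linker H1 genes taken alone had 71.6, 60.0, 84.0 and 24.8 CPM in dividing against 282, 174, 220 and 47.1 CPM in resting cells.

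Of the 64 members 18 passed the filter on low counts, and 10 of them differed at an adjusted p under 0.05, 5 higher and 5 lower in dividing cells (edgeR quasi-likelihood test with the mouse as a block). The background is 70.7% of 10029 genes called (34.0% higher, 36.7% lower), so the members' share was not above it. Their median log2 fold change was 0.29, against -0.05 over all genes tested. Hist1h1b was highest, at 4.55, 7.50, 68.0 and 18.8 CPM in dividing against 0.424, 0, 0.835 and 0.258 in resting cells (log2 fold change 5.04 ± 0.49 SE, adjusted p 2.0e-05 by edgeR), and the groups did not overlap. With so few resting counts Hist1h1b passed the filter through the dividing class alone, so it could enter the test only as a higher member. Hist1h2ap was at 2.84, 2.50, 58.8 and 8.75 CPM against 1.46, 3.29, 3.02 and 0.258 (log2 2.86 ± 0.63, edgeR adjusted p 0.0029). Its dividing and resting values overlapped, and Control 2, with 12 Hist1h2ap UMIs in all its kept cells, went the other way. Without EC-Foxc-DKO 1 the change of Hist1h2ap was 1.90 on the log2 scale with an edgeR adjusted p of 0.076.

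The core genes Hist1h2ae (log2 2.11 ± 0.34, edgeR adjusted p 4.3e-04) and Hist1h3e (1.505 ± 0.30, 0.0018) were also higher. Hist1h2ae was at 5.12, 20.01, 17.2 and 10.4 CPM in dividing against 1.89, 2.63, 2.12 and 1.29 in resting cells, with no overlap. The resting counts of Hist1h2ae and Hist1h2ap alone would not have passed the filter either. Both could therefore enter the test only as higher members, and the count of higher epithelial members is shaped in part by the filter. For Hist1h3e and Hist4h4 this was not checked. Hist4h4 passed narrowly (log2 0.81 ± 0.30, edgeR adjusted p 0.035), and it did not without the mouse term, by DESeq2, or without Control 1, Control 2 or EC-Foxc-DKO 1.

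Lower in dividing cells were Hist2h3c2 (log2 -2.79 ± 0.39, edgeR adjusted p 1.8e-04), Hist1h2bc (-2.61 ± 0.17, 3.0e-06), Hist1h1c (-2.59 ± 0.17, 3.0e-06), Hist1h1e (-1.10 ± 0.30, 0.00925) and Hist1h4i (-0.86 ± 0.18, 0.0024). Hist1h2bc was at 114, 50.0, 100.4 and 41.3 CPM in dividing and 454, 367, 342 and 177 CPM in resting cells, and Hist1h1c at 50.6, 27.5, 31.9 and 10.4 against 224, 94.2, 169 and 36.4. Each mouse had both genes lower in dividing cells. Dividing minus resting, Hist1h1e differed by -36.7, -50.7, -7.94 and 2.97 CPM in Control 1, Control 2, EC-Foxc-DKO 1 and EC-Foxc-DKO 2. For this gene EC-Foxc-DKO 2 thus went the other way. All 5 lower members had a long 3′ end, as did 3 of the 5 higher ones (Hist1h2ae, Hist1h3e and Hist4h4). Of all 18 members tested, 14 had a long 3′ end. Those not called ranged from -0.58 (Hist1h2ac) to 0.93 (Hist1h3d), among them the linker gene Hist1h1d at 0.63. Members called higher were 10 of 31 tested without Control 2, 3 of 16 without EC-Foxc-DKO 1 and 2 of 9 without EC-Foxc-DKO 2. The background was then 31.7%, 27.0% and 29.8% of genes higher. Without the mouse term 3 of the 18 members were higher and 3 lower, against 31.3% and 33.0% of genes.

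The classes also differ in cell type: 92.7% of the dividing epithelial cells were Crypt cells, and 1881 of the 2159 resting cells were in the enterocyte and Injury-state clusters. All 8 Top enterocyte markers were lower in dividing cells of every mouse (summed 348 to 6069.6 CPM, against 25015 to 57427 in resting cells), as were 10 of 10 Middle and 10 of 10 Bottom enterocyte markers, while 12 of 12 crypt markers were higher. Division and place on the crypt-villus axis cannot be told apart in this comparison. Within the Crypt cluster only 0, 2, 5 and 20 cells were resting, too few for a test. The sums over all members there were 539 CPM in dividing against 243 in resting cells of EC-Foxc-DKO 1, and 187 against 94.2 in EC-Foxc-DKO 2.

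**Figure D4:**
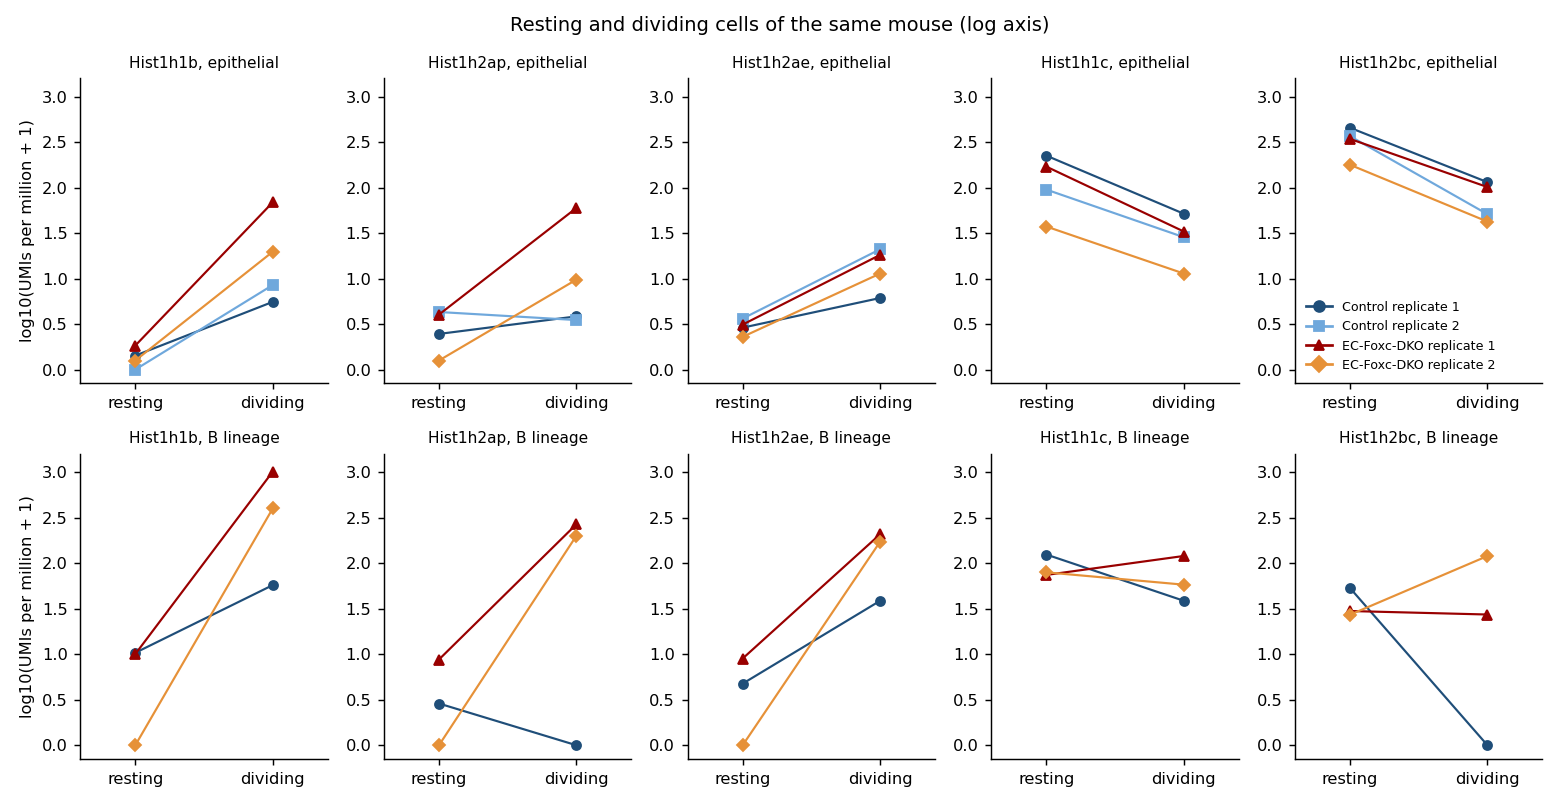
Level as log10(CPM + 1) of 5 members in resting and dividing epithelial and B lineage cells, with a line joining the 2 classes of a mouse and mice with under 5 cells in a class left out. Hist1h2bc and Hist1h1c lines fall in every epithelial mouse, while Hist1h1b lines climb in both lineages.

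In the B lineage 9, 59 and 20 dividing cells of Control 1, EC-Foxc-DKO 1 and EC-Foxc-DKO 2 were set against 123, 1197 and 45 resting cells. Control 2 had 1 dividing cell and was left out of the fit. The sums over all members were 415, 2991 and 1507 CPM in dividing and 452, 373 and 188 CPM in resting cells, so both EC-Foxc-DKO mice were higher in dividing cells and Control 1 was not. Only 6 members passed the filter on low counts. Of these, 3 were higher and 0 lower in dividing cells at an adjusted p under 0.05, against a background of 14.5% of 4218 genes called (8.44% higher, 6.05% lower). Hist1h1b, Hist1h2ae and Hist1h4d passed the filter only through the dividing class, so they could enter the test only as higher members. These are all the members called, so the count of higher members is shaped by the filter.

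Hist1h1b was again first, at 56.6, 1019 and 401 CPM in dividing against 9.39, 9.06 and 0 in resting B lineage cells (log2 5.998 ± 0.75, edgeR adjusted p 9.2e-04). Hist1h2ae was at 37.7, 208 and 172 CPM against 3.75, 7.98 and 0 (log2 4.58 ± 0.49, edgeR adjusted p 4.5e-04), and the groups did not overlap for either gene. Hist1h4d was at 37.7, 186 and 52.5 CPM against 24.4, 32.6 and 0 (log2 2.19 ± 0.50, edgeR adjusted p 0.021), likewise without overlap. For all of these genes the Control 1 dividing value rests on very few UMIs in 9 cells. The lack of overlap of Hist1h4d, at 37.7 against 32.6 CPM, is therefore narrow. Hist1h2ap did not pass the filter. Its levels were 0, 268 and 200 CPM in dividing against 1.88, 7.76 and 0 in resting cells.

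The linker genes Hist1h1c and Hist1h1e, annotated polyadenylated by the rule above, and Hist1h2bc did not show the epithelial difference here. On the log2 scale the change was -0.27 ± 0.43 for Hist1h1c, 0.14 ± 0.59 for Hist1h2bc and 1.30 ± 0.43 for Hist1h1e (edgeR adjusted p 0.074 for Hist1h1e), and whether these differ from the epithelial values was not tested. GC B cells made up 91.0% of the dividing class and Follicular B cells 92.4% of the resting one, so division and B cell type cannot be told apart. All 10 GC B markers were higher in dividing cells of the 3 mice, and 6 of the 11 Follicular B markers were lower in each. The summed plasma cell markers were at 1396, 19073 and 19063 CPM in dividing and 61054, 8849 and 93904 CPM in resting cells of Control 1, EC-Foxc-DKO 1 and EC-Foxc-DKO 2, so they were lower in dividing cells of 2 mice and higher in those of EC-Foxc-DKO 1. The part of plasma cell RNA in the difference was not tested. Without EC-Foxc-DKO 1 the count of higher members was 1 of 4 tested, at a background of 5.99% higher. Without Control 1 or EC-Foxc-DKO 2 it was 8 of 11 tested, as more members then passed the filter (background 4.62% and 10.9%).

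**Figure D5:**
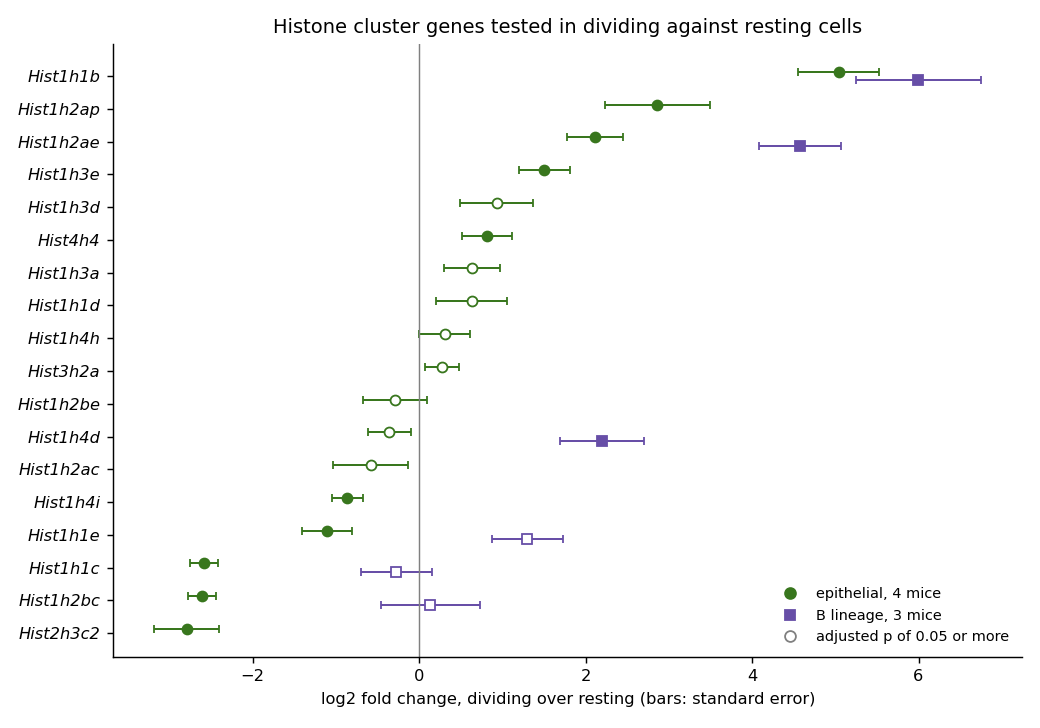
Log2 fold change ± SE of dividing against resting cells for the members tested in the epithelium (4 mice) and the B lineage (3 mice), with filled points for an edgeR adjusted p under 0.05. Hist1h1b lies farthest to the higher side in both, and Hist1h2bc and Hist1h1c are filled on the lower side only in the epithelium; the difference between lineages was not tested.

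T lineage and myeloid cells held too few dividing cells for a test at the main limits. Over all members the sums were 819, 104, 3503 and 136 CPM in 3, 1, 7 and 4 dividing T lineage cells, against 204, 248, 250 and 69.5 CPM in resting ones. In the myeloid cells the sums of all members were 1287, 211, 839 and 152 CPM in 4, 2, 9 and 3 dividing cells, against 236, 195, 216 and 56.8. Of these 8 pairs, 7 were higher in dividing cells, the exception being the single dividing T lineage cell of Control 2. The 3503 CPM of EC-Foxc-DKO 1 includes the CD8 T cell with 115 Hist1h1b UMIs. The share of all genes with such a tally was not computed. With dividing cells taken from 0.1% of UMIs, both lineages could be fitted and 0 members were called by edgeR. Hist1h4d was the 1 member tested in the T lineage (log2 1.52 ± 0.39, edgeR p 8.5e-04, adjusted p 0.076), at a background of 0.700% of 3288 genes called. In the myeloid cells 3 members were tested, 0 of them at an unadjusted p under 0.05, at a background of 0.563% of 4974 genes. At the 20% mitochondrial limit 4 members were tested in the myeloid cells and 0 called (background 0.768%), with Hist1h1e at a log2 of 1.61 ± 0.71 (edgeR p 0.022, adjusted p 0.56).

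Dividing cells were also split by whether S or G2M genes prevailed. Only EC-Foxc-DKO 1 and 2 had at least 5 cells of each kind, so values are given without a test. In the epithelium Hist1h1b was at 188 and 62.7 CPM in S cells (7 and 20 cells) against 35.7 and 11.6 in G2M cells (27 and 108 cells) of EC-Foxc-DKO 1 and 2. Hist1h2ap was at 123 and 23.0 against 41.6 and 6.44 CPM. Hist1h2bc went the other way, with 83.2 and 24.3 CPM in S against 105 and 44.0 in G2M cells. In the B lineage Hist1h1b was lower in S than in G2M cells of both mice (900.4 and 304 against 1219 and 552 CPM). Control 1 and Control 2 had 0 and 1 epithelial S cells.

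Genes that supply histones to chromatin or act on histone mRNA were mostly higher in the dividing epithelium. Of a list of 23 such genes, 21 were tested there, and 18 were higher and 0 lower against a background of 34.0% higher. How many of the list, here or in the B lineage, passed the filter through the dividing class alone was not counted. A gene that did so could be called only as higher. The chaperone Asf1b had a log2 fold change of 7.19, the chromatin assembly factor subunits Chaf1b and Chaf1a 4.78 and 3.73, the H1 and H3-H4 chaperone Nasp 2.96, the histone acetyltransferase Hat1 2.47 and Slbp 0.97. In the B lineage 14 were tested, and 7 were higher and 0 lower against a background of 8.44% higher, with Chaf1a at 5.03, Asf1b at 3.45, Hat1 at 2.21, Nasp at 2.13 and Slbp at 1.31. Among histone variant genes outside the clusters, 4 of 9 tested were higher in the epithelium, near the background of 34.0%: the centromere H3 gene Cenpa (6.58), H2afx (3.21), H2afz (2.59) and H2afy (1.26). In the B lineage 5 of 10 were higher, with H1fx at 4.55, H2afx at 3.59, H2afz at 3.49, Cenpa at 1.85 and H2afv at 1.67. The H3.3 genes H3f3a and H3f3b and the linker gene H1f0 were not called in either lineage.

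The genotypes were compared in the 9 cell types with at least 10 cells in every mouse. Of the members tested (16 in Crypt cells, 16 in Bottom and 9 in Middle enterocytes, 5 in macrophages, 3 each in Follicular B and CD8 T cells, 1 each in plasma cells and BEC, and 0 in enteric glia), 0 were called by edgeR and 0 by DESeq2. The edgeR background was 0% called in 8 types and 0.0591% in Middle enterocytes, and by DESeq2 it lay between 0% and 0.0871% (plasma cells). At an unadjusted p under 0.05 there were 5 members over the 9 types. Over all genes tested, 229 of 9276 in Crypt cells and 288 of 9661 in Bottom enterocytes were below this limit by edgeR. In Crypt cells these were Hist1h1b (log2 3.08 ± 0.83 for EC-Foxc-DKO against Control, edgeR p 0.0079, adjusted p 1.0) and Hist1h2ap (3.40 ± 1.25, edgeR p 0.030). Both EC-Foxc-DKO mice were above both Control mice for each, and the share of all genes so separated was not computed. The Control counts alone would not have taken either gene past the filter on low counts. Both genes could therefore enter this test only as higher in the EC-Foxc-DKO mice. With a mouse left out the log2 change was 1.85 to 3.75 for Hist1h1b and 1.30 to 4.26 for Hist1h2ap. The Crypt cells of the EC-Foxc-DKO mice included 27 of the 28 epithelial cells in S, and the part of this in the difference was not tested. In Bottom enterocytes Hist1h1e (-1.42 ± 0.51, edgeR p 0.024), Hist1h2bc (-0.76 ± 0.32, 0.048) and Hist3h2a (-0.98 ± 0.41, 0.043) were below the unadjusted limit, with 4 of 20 members called lower without EC-Foxc-DKO 1, where the background rose to 7.01% of 10248 genes called. These p-values rest on 2 mice a group.

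Whether the dividing-against-resting difference itself depended on genotype was tested in the epithelium after the values were seen. Of the 18 members 0 were called, at a background of 0.120% of 10029 genes called (edgeR). Hist1h2ap had the smallest p: its dividing-against-resting log2 fold change was 3.81 ± 0.70 higher in the EC-Foxc-DKO mice (edgeR p 1.4e-04, adjusted p 0.091). Hist1h1e had 1.58 ± 0.38 (edgeR adjusted p 0.26) and Hist1h1b 2.63 ± 0.84 (edgeR adjusted p 0.69).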

How the data were processed

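Per the labels and the study's methods, cells were dissociated from the distal jejunum, and 3′ libraries (10x Genomics v3.1) were counted by the authors with Cell Ranger (version 4.0.0 in the submitters' processing notes, while the study's methods name an older version) on mm10. The deposited values are UMI counts per gene and barcode, not normalized. The deposited joined table of counts was used only for its list of 18407 genes, over which the mitochondrial share was computed. Members, lists and tests were chosen with earlier results of these data known.

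From the counts, barcodes with at most 10% mitochondrial UMIs were kept. Genes other than the histone clusters were normalized, reduced to 15 principal components and clustered with Leiden (scanpy 1.11.5, resolution 0.5), and clusters were named from at least 3 markers. Doublets were not removed in the main analysis: Scrublet's own limit marked 28 kept cells (0.499%), so removal of the 230 highest-scoring cells was an alternative. UMIs were summed per mouse and class (at least 5 cells, at least 3 mice) or type (at least 10 cells) and tested with edgeR 4.0.16 (filterByExpr, TMM, quasi-likelihood, Benjamini-Hochberg over all genes tested, threshold 0.05), with the mouse as a block between dividing and resting cells of the same animal and no block between genotypes. SE is the log2 fold change over the root of F. Planned tests within the Crypt cluster, in T lineage and myeloid cells and between S and G2M cells were not made at the main limits, since under 3 mice had 5 cells in each class. Counts were also simulated with the same dispersion for every gene and no difference between mice, and only genes with enough counts were changed. On these the fit recovered 87% of genes changed by 2 log2 units in the epithelial, 50% in the B lineage and 58% in the Crypt genotype comparison. It recovered 16%, 10% and 3% of those changed by 1 log2 unit. The real counts differ from this setting, so these shares are not the power of the tests made. Genes named are those with at least 200 UMIs, a fixed list of 20, and up to 5 called members in each direction; others were chosen after their values were seen. Gene ends came from GENCODE on GRCm38. Alternatives were DESeq2 1.42.0, edgeR's relative log size factors, no filter on low counts, a 20% mitochondrial limit, other dividing limits and histones kept for clustering. Others were the block added or left out and each mouse left out. For levels by cell type, cells under 2000 UMIs were also dropped and the share of UMIs was averaged over cells.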

Additional observations from a re-analysis of the deposited data

Results flagged for a closer look

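The members Hist1h4i, Hist3h2a and Hist1h1a had dividing-minus-resting differences that pointed opposite ways in every mouse of a pair of groups, and for these 3 members the difference between groups was not tested. They were found by a search over the members with at least 200 UMIs or in the fixed list. The share of all genes with such a split was not computed, and with so few mice it can arise by chance. Hist1h4i was lower in dividing epithelial cells of all 4 mice (mean difference -4.72 CPM) and higher in dividing B lineage cells of all 3 mice (14.3 CPM, from 19 UMIs in the dividing cells). Hist3h2a went the other way, with a mean of 6.57 CPM in the epithelium and -12.4 CPM in the B lineage, where 14 UMIs lay in dividing cells. Hist1h1a was higher in dividing epithelial cells of both EC-Foxc-DKO mice and lower in those of both Control mice, and the mean difference between the genotypes was 4.93 CPM, from 3, 0, 17 and 14 UMIs in the dividing cells. Hist1h4d and Hist1h2be split between the genotypes in the same way, and for these the difference was tested and not called (edgeR interaction p 0.051 and 0.095, adjusted p 1.0 for both).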

How the results depend on the processing

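In the epithelium, 194 of 213 gene values under an alternative kept direction and side of the threshold. The members called higher numbered 15 of 62 tested with no filter on low counts, where 21.1% of all genes were higher. They numbered 3 of 18 with no replicate block (background 31.3%) and 1 of 8 when dividing cells began at 0.5% (34.1%). With each mouse left out they numbered 2 to 10, of 9 to 31 tested. Those called lower numbered 3 with no replicate block (background 33.0% lower), 8 of 25 at a 20% mitochondrial limit (40.6%) and 3 at 0.5% (36.5%). Fewer members were tested at 0.5% (8). Without the block Hist1h1e (adjusted p 0.051), Hist1h3e (0.051) and Hist1h4i (0.17) also missed the threshold. In the B lineage 19 of 58 members were higher with no filter, where 3.49% of all genes were higher. With a mouse left out 1 to 8 were higher, of 4 to 11 tested. The block changed no call there. At the 20% limit no GC B cluster was named and no fit was made. Signs turned for values that were not called: in the B lineage Hist1h1c without Control 1 or EC-Foxc-DKO 2 (range with a mouse left out -1.26 to 0.043) and Hist1h2bc by DESeq2 (-0.11) or without EC-Foxc-DKO 2 (range -0.65 to 0.53), and in the epithelium Hist1h1d without EC-Foxc-DKO 1 (range -0.17 to 1.07) and Hist1h4d at 0.5% (0.13). Hist4h4, called higher, was -0.15 at the 20% limit. Between genotypes, no filter gave 1 called member of 55 in Bottom enterocytes (background 1.03%), 1 of 39 in CD8 T cells (0.201%) and 2 of 60 in Crypt cells (0.642%). With a mouse left out the counts were 0 to 4 in Bottom enterocytes, 0 to 1 in CD8 T cells, Middle enterocytes and plasma cells and 0 to 2 in Crypt cells, where a lone mouse is assumed to vary like the others. Of the levels by cell type, lymphatic endothelial cells moved to 378 CPM when cells under 2000 UMIs were dropped and shares averaged over cells. Neutrophils moved to 1434 and Tuft cells to 766 CPM at the 20% limit. The cause was not tested for any of these.

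Same-numbered Control and EC-Foxc-DKO mice share only a number: their deviations correlated between -0.33 (Crypt) and 0.007 across the 9 types. With the replicate block 0 members were called in each type, and with crossed numbers, tried after the data were seen, 38 genes were called in Bottom enterocytes, 3 in Crypt cells and 0 in macrophages and plasma cells, the types with a correlation under -0.1, and 0 of them were members.

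Depth limits members under 200 UMIs and the types with few cells, and 2 mice a group limit the genotype tests.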
